A study of Rattus norvegicus with 93 samples.

Results

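Rostromedial tegmental libraries of outbred rats whose sample numbers form the blocks called E and F had higher levels of genes that neurons switch on soon after firing than those of block D. The rostromedial tegmental nucleus (RMTg) is a small group of GABA neurons behind the ventral tegmental area that sends inhibitory axons to the dopamine cells there. Its polyadenylated RNA was sequenced, 1 library per animal. The labels name the tissue and the outbred stock and give no strain, genotype, sex, age, treatment, behaviour or collection time, so the groups are called here by their identifiers. When the numeric identifiers of the 93 samples are sorted, a gap of over 50000 starts a new series, which gives 6 series, A to F. Series E and F were compared with series D. What a series stands for is not given in the sources used here, and a series may differ from another in several ways at once.

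The libraries were chosen by measured values: those in which Nif3l1 took under 20% of the estimated counts and LOC120093067 plus Zfp532 under 10% were kept. This left 26 of the 92 libraries with data, 12 of 13 in series D, 7 of 7 in series E and 7 of 7 in series F. Library D10 was left out with 51.4% of its counts in the pair of features, and the kept library of series D with the highest share, D2, had 5.498%. The contrast was also selected on these data, because early genes had already been seen to differ between series. Differences of the early genes are therefore a description of the contrast and support nothing further. Each library is named by its series and number, and the p-values below measure only the spread between these animals.

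Neuronal firing and calcium entry activate kinases that act on transcription factors already present in the nucleus, and these switch on immediate early genes without new protein synthesis. Many early genes encode transcription factors (Fos, Egr, Nr4a and Npas4 families) that in turn act on delayed genes, among them secreted peptides, growth factors and synaptic proteins. Glucocorticoids, the stress hormones of the adrenal cortex, raise a separate group of genes through their own receptor.

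Library totals in series D ranged from 11.6 to 41.6 M estimated counts (M, 1000000 counts) with a median of 13.8 M, against 12.9 to 42.3 M in series E and F (median 25.2 M). Levels are given in counts per 1000000 (CPM), and differences as log2(CPM + 1) of series E and F minus that of series D with the standard error (SE). All 26 libraries had Xist, the RNA of the inactive X chromosome, at 147 CPM or more and Ddx3y, a Y-linked gene, at 1.23 CPM or less, whereas Xist exceeded Ddx3y in 11 of 23 kept libraries of series B and C. No pair of the 26 was identical, and over their 325 pairs the chi-square per gene was at least 7.84. Library F1 stood apart in series F with low early genes, and D2 and D6 stood apart in series D. The RMTg inhibitory markers were present: Gad1, the main GABA-synthesising enzyme, had a median of 424 CPM in series D and 516 CPM in series E and F, and the transcription factor gene Sox14 had 43.7 and 41.6 CPM.

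Of 18476 genes tested, 437 were higher (2.37%) and 1042 lower (5.64%) in series E and F at an adjusted p under 0.05 in limma. The median size of a called difference was 0.37 log2 units among the rises and 0.41 among the falls, but differences over 1 log2 unit were mostly rises. Of the rises 37 exceeded 1 log2 unit and 11 exceeded 2, while 4 falls exceeded 1 and 0 exceeded 2. In 19 genes (0.103%) every library of series E and F lay above every library of series D, and in 0 genes (0%) every one lay below. Without F1 the first count was 33. With the Xist level as a covariate 91 genes were higher and 9 lower, and whether Xist or what moves with it accounts for the difference was not tested. Without D2, D6 and F1 the counts were 549 and 1633.

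**Figure D1:**
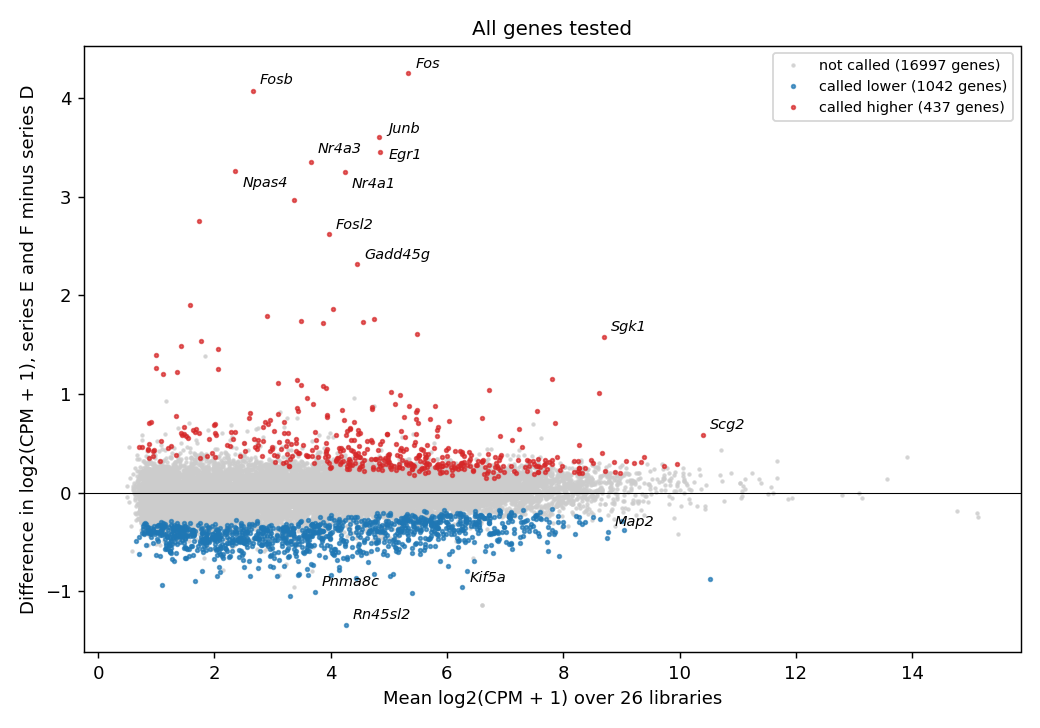
Difference between series E and F and series D in log2(CPM + 1) against the mean log2(CPM + 1) over 26 libraries, 1 point per gene tested. The 437 genes called higher reach 4.25 log2 units at Fos, and the 1042 called lower reach -1.34 at Rn45sl2.

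Early transcription factor genes rose most. Of the 20 genes of the list 19 passed the filter on low values, and 18 of these were called higher with 0 lower, beside 2.37% of all genes. The filter takes the libraries of series D, E and F together, so a gene low in series D can pass through E and F alone. Fosb and Npas4 passed in this way, and Egr2, low in each series, did not pass. The share called is therefore partly set by the filter. With no filter 18 of 20 were called higher and 0 lower, beside 323 higher of 33069 genes. The median difference of the 19 was 1.45 log2 units, against 0.0068 over all genes tested. Its size depended on the processing: it was 0.811 with a pseudocount of 5, 1.96 with 0.25 and 2.11 with voom weights. The summed level of the list was 80.97 to 133.1 CPM in series D and 190.8 to 864.9 CPM in series E and F. The count was 14 with the Xist covariate and 18 without D2, D6 and F1. Ier5 was the one that did not pass (difference -0.02), and Egr2 was under the filter with medians of 0.412 CPM in series D and 0.32 CPM in series E and F.

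Fos, which encodes the Fos subunit of the AP-1 transcription factor, ranged from 3.31 to 12.5 CPM (median 8.03) in series D. It ranged from 103 to 224 CPM (median 167) in series E and from 37.5 to 227 CPM (median 194) in series F. The difference was 4.25 ± 0.21 log2 units (SE), a 19.04-fold change in CPM + 1, and the groups did not overlap. The lowest library of series F was F1, and the next lowest had 179 CPM. Its relative Fosb was at 0.0719 to 0.978 CPM (median 0.348) in series D and at 4.2 to 40.1 CPM in series E and F, a difference of 4.08 ± 0.22. Junb, an AP-1 partner, was at 4.84 to 8.18 CPM in series D and at 18.6 to 148 CPM in series E and F (3.61 ± 0.22). All 3 genes were high in every library of series E and F, with F1 the lowest of series F in each. Fosl1, another Fos relative, rose by 1.91 ± 0.18, and Jun, which was already present at 24 to 50.8 CPM in series D, rose by only 0.59 ± 0.12.

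Npas4, a factor gene that responds to calcium entry in neurons, was at 0.0852 to 0.985 CPM (median 0.468) in series D. It was at 1.59 to 24.7 CPM (median 17.5) in series E and at 4.13 to 30.1 CPM (median 17.1) in series F, with a difference of 3.26 ± 0.28. The lowest library of both series still exceeded the highest of series D. Egr1, a zinc finger factor gene, was at 4.02 to 14 CPM (median 6.8) in series D, at 50.3 to 142 CPM in series E and at 13.2 to 142 CPM in series F (3.45 ± 0.24). Only F1, at 13.2 CPM, overlapped with series D. Its relatives Egr4 and Egr3 rose by 2.75 ± 0.28 and 1.26 ± 0.18 log2 units from medians of 0.121 and 0.219 CPM in series D.

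The orphan nuclear receptor gene Nr4a1 was at 1.96 to 8.06 CPM (median 4.66) in series D and at 21.5 to 73.3 CPM in series E and F (3.26 ± 0.17). The groups did not overlap. Other early factors rose less: Btg2, an antiproliferative co-regulator gene, by 1.86 ± 0.15, Csrnp1 by 1.45 ± 0.16, Ier2 by 1.14 ± 0.11, Klf2 by 0.79 ± 0.12, Maff by 0.77 ± 0.13, Klf10 by 0.61 ± 0.12, Atf3 by 0.61 ± 0.14 and Klf4 by 0.46 ± 0.12. Btg2 and Ier2 were among the genes with no overlap. Klf10 and Jun lost the call with the Xist covariate alone, and Atf3 and Klf4 under 2 settings each.

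**Figure D2:**
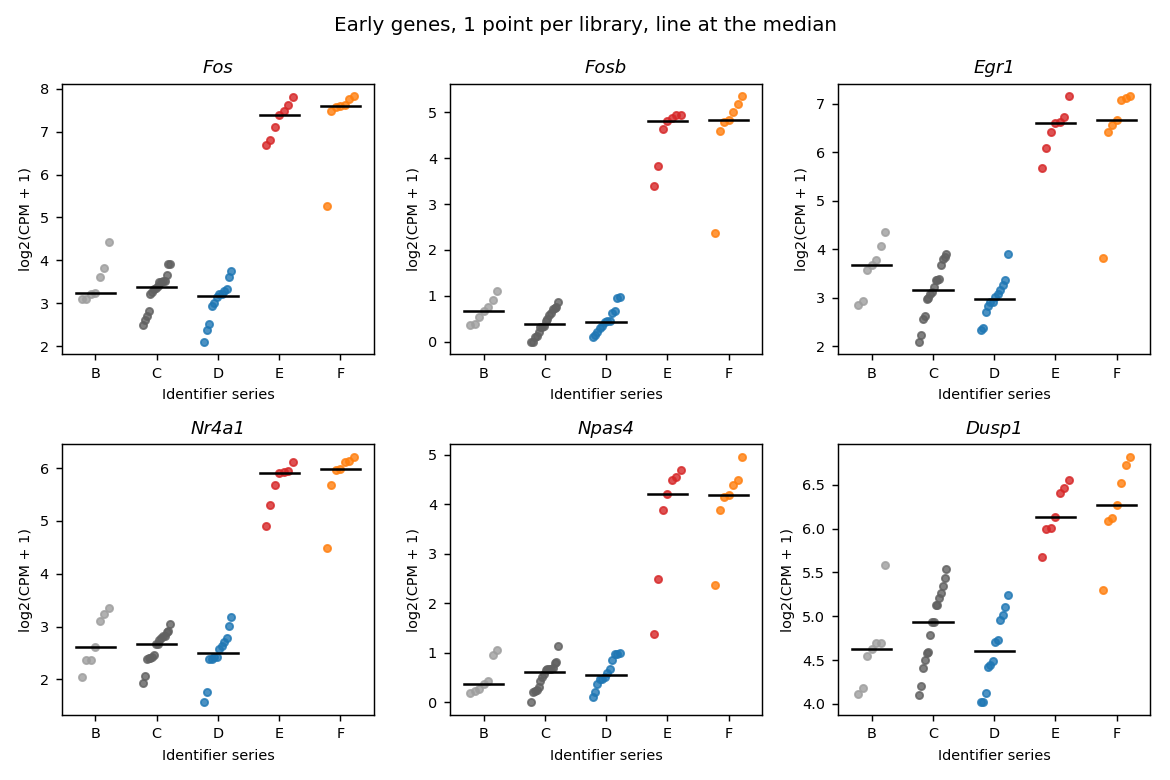
Level in log2(CPM + 1) of 6 early genes in each kept library of series B to F, 1 point per library, with the median as a line. Series B, C and D lie together at a low level, and series E and F lie above them, with F1 the lowest of series F in Fos (37.5 CPM) and Egr1 (13.2 CPM).

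Of the other early genes, which encode enzymes, signalling proteins and synaptic proteins, 15 passed the filter. Of these 6 were called higher and 0 lower, beside 2.37% and 5.64% of all genes tested, with a median difference of 0.22. Gadd45g, a growth arrest gene, was at 6.05 to 11.4 CPM in series D and at 16.4 to 76.6 CPM in series E and F (2.32 ± 0.18). Dusp1, a phosphatase that turns off MAP kinases, was at 15.2 to 36.9 CPM (median 23.4) and at 38.3 to 112 CPM (1.61 ± 0.15). Sik1, a kinase gene induced by cyclic AMP, was at 7.77 to 17.6 CPM and at 22.3 to 62.2 CPM (1.73 ± 0.13). None of the 3 overlapped between the groups. Apold1, an endothelial early gene, rose by 1.74 ± 0.15 without overlap, and Arc, which encodes a synaptic protein, by 1.22 ± 0.15. Rgs1 rose by 0.58 ± 0.16 and lost the call in 6 of 42 other settings. Trib1 (0.51 ± 0.16, adjusted p = 0.051 in limma), Zfp36 (0.22) and Gadd45b (-0.06) did not pass.

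Promoter windows of RefSeq (GRCr8) were searched on both strands for the cyclic AMP response element TGACGTCA, its core TGACG, the AP-1 element TGAGTCA and the CArG box, the sequence that serum response factor binds. The windows hold 250 bases before and 50 bases from each gene start, and TGACG is contained in TGACGTCA. The full element was in 29 of 360 promoters of genes called higher (8.06%), in 10 of 831 of genes called lower (1.2%), in 402 of 14954 of all genes tested (2.69%) and in 1.91% of all 27457 promoters. The core was in 37.5%, 20.9%, 27.9% and 22% of the same 4 sets. AP-1 elements were in 3.89%, 3.37%, 3.56% and 4.53%, and CArG boxes in 1.39%, 1.56%, 1.3% and 1.64%. Among the genes called higher with a window in the table, the full element was in 3 of 11 early transcription factor genes, in 3 of 11 delayed genes and in 0 of 11 glucocorticoid target genes. A match describes the letters in a window and is not evidence of binding.

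The following windows are 150 bases that end 10 bases past the gene start, 5′ to 3′ on the gene's strand. They are a selection from the genes described above or below that hold a full match. Other described genes with a full match are not printed, among them Btg2, Maff and Ldha (TGACGTCA) and Gpr3, Bag3 and Hbb (AP-1 element). Capitals mark the CArG box in Egr1, TGAGTCA in Srxn1 and TGACGTCA in the other printed windows.
Egr1, 2 CArG boxes that start 105 and 83 bases before the gene start, chr18:26736938-26737087, plus strand: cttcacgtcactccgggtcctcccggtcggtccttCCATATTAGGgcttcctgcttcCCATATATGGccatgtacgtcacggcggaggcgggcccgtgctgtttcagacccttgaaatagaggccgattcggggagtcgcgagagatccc
Ier2, early factor, chr19:40399233-40399382, plus strand: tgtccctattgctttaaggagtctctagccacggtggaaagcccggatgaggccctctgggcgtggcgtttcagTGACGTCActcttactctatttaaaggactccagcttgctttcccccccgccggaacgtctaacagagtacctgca
Dusp1, early phosphatase, chr10:17184713-17184862, plus strand: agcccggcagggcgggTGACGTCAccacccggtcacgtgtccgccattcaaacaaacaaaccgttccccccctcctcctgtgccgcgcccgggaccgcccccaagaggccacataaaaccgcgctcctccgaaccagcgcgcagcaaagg
Plk2, delayed kinase, chr2:43702396-43702545, plus strand: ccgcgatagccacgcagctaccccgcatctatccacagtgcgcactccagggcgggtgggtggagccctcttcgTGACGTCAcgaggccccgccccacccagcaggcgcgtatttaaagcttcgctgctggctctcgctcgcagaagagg
Scg2, delayed secreted peptide precursor, chr9:88256857-88257006, minus strand: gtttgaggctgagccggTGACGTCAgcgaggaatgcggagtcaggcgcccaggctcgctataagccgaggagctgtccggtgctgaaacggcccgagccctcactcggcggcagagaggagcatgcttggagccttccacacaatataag
Vgf, delayed secreted peptide precursor, chr12:25277011-25277160, minus strand: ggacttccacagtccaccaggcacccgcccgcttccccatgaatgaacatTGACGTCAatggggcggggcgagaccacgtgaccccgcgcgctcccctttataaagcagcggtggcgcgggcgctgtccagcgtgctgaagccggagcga
Srxn1, antioxidant enzyme gene that rose, chr3:161064672-161064821, plus strand: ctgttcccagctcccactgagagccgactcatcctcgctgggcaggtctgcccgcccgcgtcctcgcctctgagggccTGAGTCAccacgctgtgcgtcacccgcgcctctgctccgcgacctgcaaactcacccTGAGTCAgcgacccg
Kif5c, kinesin gene that fell, chr3:54441167-54441316, plus strand: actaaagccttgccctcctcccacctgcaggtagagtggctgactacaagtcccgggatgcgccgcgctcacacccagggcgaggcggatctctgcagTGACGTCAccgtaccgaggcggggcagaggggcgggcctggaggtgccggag
TGACGTCA was found in genes that moved in opposite directions: its first base is at -66 in Ier2 and Plk2, which rose, and at -42 in Kif5c, which fell.

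Delayed genes rose in part. Of the 30 genes of the list 27 passed the filter, and their median difference was 0.29 log2 units. Of the 27, 13 were called higher and 0 lower, beside 2.37% and 5.64% of all genes tested. The counts were 9 and 0 with the Xist covariate, and 13 and 1 without D2, D6 and F1. Several members that act in the nucleus rose, while Nr4a2 did not pass. Nr4a3, a receptor gene of the Nr4a family, was at 1.61 to 3.42 CPM (median 2.7) in series D, at 17.2 to 51.6 CPM (median 39.1) in series E and at 11.9 to 60.7 CPM (median 46) in series F (3.35 ± 0.18, adjusted p = 5.8e-15). Fosl2, a late Fos relative, was at 2.34 to 8.73 CPM in series D and at 9.78 to 48.8 CPM in series E and F (2.62 ± 0.19, adjusted p = 1.7e-11). Crem, which encodes repressors of cyclic AMP response elements, was at 31.3 to 47.5 CPM (median 38.9) in series D and at 49.3 to 81.6 CPM in series E and F (0.74 ± 0.07, adjusted p = 1.5e-08). None of these 3 genes overlapped between the groups.

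Secreted and synaptic members rose by less than Nr4a3 and Fosl2. Scg2, the precursor of secretoneurin, was at 893 to 1370 CPM (median 1130) in series D, at 1410 to 2120 CPM (median 1690) in series E and at 953 to 1930 CPM (median 1660) in series F (0.59 ± 0.09, adjusted p = 0.00011). Every library but F1 exceeded series D. Vgf, a secreted peptide precursor, was at 25.9 to 71.8 CPM and at 39.4 to 93.7 CPM (0.67 ± 0.13, adjusted p = 0.0012), with overlap, and lost the call with the Xist covariate. Homer1, a postsynaptic scaffold with an activity-induced short form, rose by 0.71 ± 0.12 and Nptx2, a secreted pentraxin, by 0.71 ± 0.15. Bdnf, the brain-derived neurotrophic factor gene, was at 4.31 to 11.4 CPM (median 5.65) in series D and at 4.13 to 12.6 CPM in series E and F, and its groups overlapped over nearly the whole range (0.51 ± 0.12, adjusted p = 0.0092). Nptx2 lost the call with the Xist covariate and without series F, and Bdnf with the Xist covariate and without series E. Pcsk1, a prohormone convertase, rose by 0.38 ± 0.12 (adjusted p = 0.044) and lost the call in 26 of 43 other settings.

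Signalling members of the delayed list also rose. Gpr3, a receptor that raises cyclic AMP, was at 1.12 to 8.14 CPM (median 2.64) in series D and at 7.35 to 16.7 CPM in series E and F (1.79 ± 0.16, adjusted p = 3.2e-09), with a narrow overlap. Plk2, a synaptic kinase, was at 12.6 to 33.8 CPM and at 22.9 to 65.9 CPM (0.99 ± 0.14), and only F1 overlapped. Tiparp rose by 1.06 ± 0.14 and Rgs2, which limits G protein signalling, by 0.59 ± 0.09. Ptgs2 (0.19), Nr4a2 (0.19), Tac1 (-0.03) and Inhba (-0.31) did not pass.

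Of the genes that limit ERK kinase signalling, 3 of 10 were called higher, beside 2.37% of all genes tested. These were the receptor inhibitor gene Errfi1 (0.84 ± 0.11), the phosphatase gene Dusp14 (0.76 ± 0.10) and Spry4 (0.30 ± 0.09, adjusted p = 0.041, lost in 23 of 43 settings). The median of the 10 was 0.15, and Dusp6 (-0.05) and Spry2 (-0.03) did not pass. Of 15 genes for the kinases and factors that act before the early genes, 1 was called higher and 3 lower. Over all genes tested the shares were 2.37% and 5.64%, and the median of the 15 was -0.13. The called members were small in difference: Mef2d rose by 0.23 ± 0.07, and Crebbp (-0.24 ± 0.06), Mef2a (-0.24 ± 0.06) and Mef2c (-0.30 ± 0.08) fell. Mef2d lost the call in 8 of 43 other settings, Mef2a and Mef2c in 5 each and Crebbp in 4, each including the Xist covariate. Creb1 (-0.13) and Srf (0.05) did not pass.

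**Figure D3:**
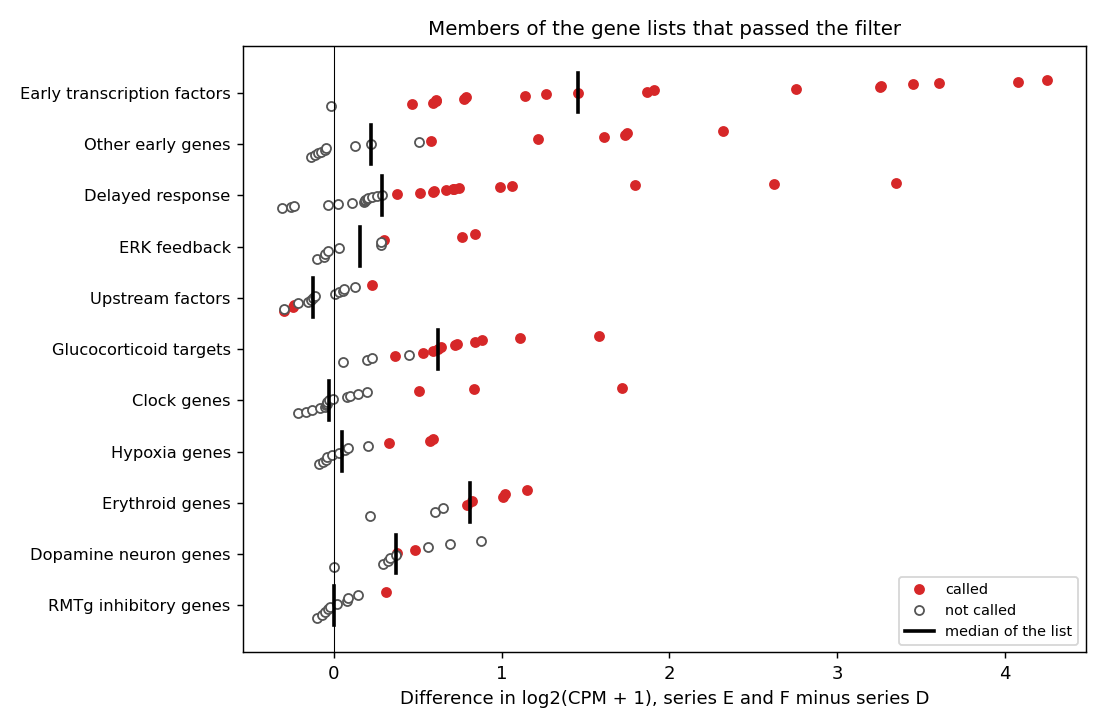
Difference between series E and F and series D in log2(CPM + 1) for each list member past the filter, filled where called at an adjusted p under 0.05, with the list median as a bar. The early transcription factor list has its median at 1.45, the glucocorticoid target list at 0.62, and the RMTg inhibitory list at -0.0018.

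Glucocorticoid target genes rose as a further group. Of 15 members past the filter 11 were called higher and 0 lower, beside 2.37% and 5.64% of all genes tested. The median was 0.62, and 4 were called higher with the Xist covariate. Sgk1, a kinase that regulates ion transport, was at 63.8 to 480 CPM (median 249) in series D, at 373 to 913 CPM (median 767) in series E and at 466 to 859 CPM (median 757) in series F (1.58 ± 0.21, adjusted p = 6.5e-06). The groups overlapped through D8 (454 CPM) and D9 (480 CPM) against E6 (373 CPM) and F2 (466 CPM). Pdk4, which limits glucose oxidation, was at 0.372 to 16.2 CPM and at 4.93 to 24.3 CPM (1.11 ± 0.27, adjusted p = 0.0099). Arrdc2 rose by 0.88 ± 0.13, the cell cycle inhibitor gene Cdkn1a by 0.74 ± 0.15, Nfkbia, the inhibitor of NF-kappaB, by 0.72 ± 0.13, Sult1a1 by 0.64 ± 0.19 (lost in 20 of 43 settings), the metallothionein gene Mt1 by 0.62 ± 0.13 and Ddit4 by 0.59 ± 0.17. The classical targets Fkbp5 (0.53 ± 0.14, adjusted p = 0.015) and Tsc22d3 (0.36 ± 0.08, adjusted p = 0.0041) rose by less, and Zbtb16 (0.05), Klf9 (0.23), Mt2A (0.45) and Plin4 (0.20) did not pass. Errfi1 belongs to this list and to the ERK list.

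Against series B and C the same list had a median difference of -0.22 in series D and 0.40 in series E and F. In D 0 members were called, and in E and F 6 were called higher, beside 1.53% of all genes in that fit. Sgk1 had a median of 368 CPM in the 23 libraries of series B and C (223 to 794 CPM), between series D and series E and F. In the fit over series B to F its difference was -0.79 for D and 0.79 for E and F, each against the mean of B and C, and only the second passed (adjusted p = 0.011). Series D and series B and C differ in the share of libraries with high Xist, so these values mix that with the series. Fos had a median of 9.24 CPM in series B and C and 8.03 CPM in series D, and the early transcription factor list had a median difference of -0.06 in series D against series B and C, with 0 members called.

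Clock genes did not move together. Of 17 members 3 were called higher and 0 lower, beside 2.37% and 5.64% of all genes tested, and the median was -0.03. Per1, a clock gene that is also an early gene, was at 6.03 to 15.9 CPM (median 12.9) in series D and at 18 to 33.9 CPM in series E and F without overlap (0.83 ± 0.11, adjusted p = 8.5e-06). Nfil3, a basic leucine zipper factor gene, was at 3.45 to 10.8 CPM and at 13.5 to 31.8 CPM without overlap (1.72 ± 0.13, adjusted p = 4.8e-11). Cry2 rose by 0.51 ± 0.08 (adjusted p = 6.5e-05). Other core members did not pass: Bmal1 (0.09), Per2 (-0.04) and Dbp (-0.13).

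**Figure D4:**
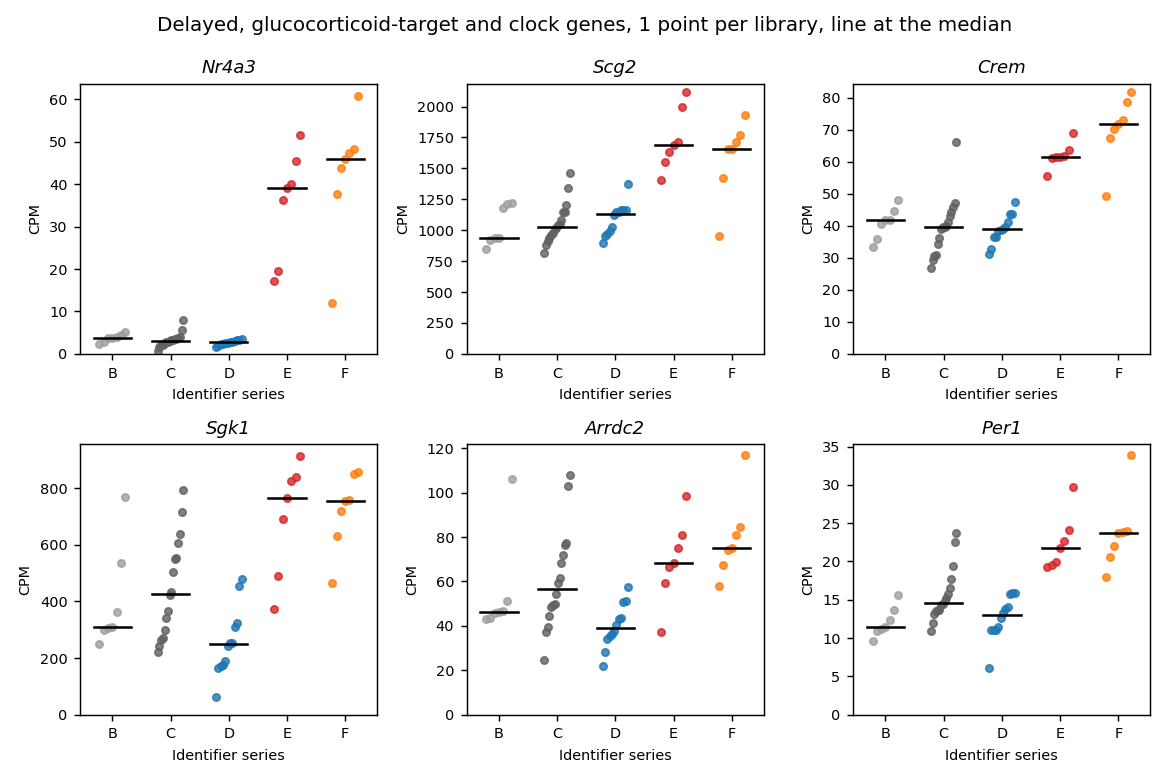
Level in CPM of 6 genes in each kept library of series B to F, 1 point per library, with the median as a line. Series E and F lie above series D in Nr4a3, Crem and Per1 with no overlap, and overlap it in Scg2 through F1 (953 CPM) and in Sgk1 through E6 (373 CPM) and F2 (466 CPM).

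Most stress list members were not called, but the heat shock, hypoxia, unfolded protein response and inflammatory lists exceeded the 2.37% called higher over all genes tested. The excess rests on 1 to 3 genes in each list, with 1 of 12 (Atf4) in the unfolded protein response list. Of 12 heat shock genes 2 were called higher, Dnajb1 (0.75 ± 0.14) and Bag3 (0.54 ± 0.13), while Hspa1a (0.51 ± 0.37) and Hspa1b (0.76 ± 0.42) varied too much between libraries to pass. Of 12 hypoxia genes 3 were called higher: Slc2a1, the glucose transporter of the blood-brain barrier (0.57 ± 0.09, adjusted p = 0.00017), Ldha, lactate dehydrogenase A (0.33 ± 0.09), and Ddit4, which is also a glucocorticoid target. Of 13 respiratory chain genes 0 were called. Of 6 inflammatory early genes past the filter 2 were called, Nfkbia and Nfkbiz (0.48 ± 0.15, adjusted p = 0.048, lost in 24 of 42 settings). With the Xist covariate 0 heat shock genes, 0 unfolded protein response genes, 1 hypoxia gene and 1 inflammatory gene were called higher.

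Outside the lists, Srxn1, an antioxidant enzyme gene, was at 8.72 to 18.7 CPM (median 13.1) in series D and at 20 to 63.4 CPM in series E and F without overlap (1.76 ± 0.14, adjusted p = 5.8e-11). Tmem252 rose by 1.25 ± 0.20 (adjusted p = 0.00013). Both are among the 20 largest rises. Ackr3, a chemokine receptor gene (0.85 ± 0.15), and LOC120095261 (2.97 ± 0.16) complete the 19 genes without overlap and were chosen after their values were seen.

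Part of the erythroid list rose. Of 8 erythroid genes past the filter 5, all globin genes, were called higher, beside 2.37% of all genes tested, and 0 with the Xist covariate. Series E alone against D had 2 called and series F alone 0, while the globin gene Hbb-b1 (0.60 ± 0.24), Alas2 (0.65 ± 0.23) and Ahsp (0.22 ± 0.12) did not pass. Hbb, a beta globin gene, was at 75.7 to 346 CPM (median 132) in series D, at 181 to 876 CPM in series E and at 122 to 575 CPM in series F (1.15 ± 0.28, adjusted p = 0.0096), with wide overlap. Hba-a1 (1.01 ± 0.22), Hbb-bs (1.02 ± 0.27), Hba-a2 (0.82 ± 0.24) and Hba-a3 (0.80 ± 0.23) are near-identical to other globin genes, and how the estimated counts split between copies is uncertain. Hba-a2 lost the call in 10 of 43 other settings, Hba-a3 in 8, Hbb-bs in 6, Hbb in 3 and Hba-a1 in 1. Against series B and C the list had a median difference of 0.77 in series D, with 0 members called. In series E and F it was 1.64, with 7 called higher, beside 1.53% of all genes in that fit. The summed erythroid level was 355.4 to 1177 CPM in series D and 526.1 to 2771 CPM in series E and F. Its part in the other results was not tested. In bulk tissue, more cells of a type and more RNA per cell cannot be told apart.

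Markers of brain cell types moved less. The counts below stand beside 2.37% of all genes tested called higher and 5.64% called lower. The summed level of 10 dopamine neuron genes had a median of 558.6 CPM in series D (425.7 to 1090) and 896.1 CPM in series E and F (391.5 to 1474). Of these genes 2 were called higher, Ret (0.49 ± 0.15, adjusted p = 0.043, lost in 25 of 43 settings) and Aldh1a1 (0.38 ± 0.11, lost in 9), and the median was 0.37, while Th (0.69 ± 0.33) and Slc6a3 (0.88 ± 0.39) did not pass. Of the RMTg inhibitory genes 1 of 10 was called, Gad1 (0.31 ± 0.08, lost in 4 of 43 settings), and the median was -0.0018. Astrocyte genes had 0 called higher and 1 lower of 9 (Sox9, -0.40 ± 0.10, lost in 2 of 43 settings). Microglia genes had 1 higher of 10 (Tmem119, 0.45 ± 0.12, lost in 5 of 43 settings), and oligodendrocyte genes 0 of 8. Chat, the defining gene of cholinergic neurons, had medians of 0.123 and 0.0544 CPM. Whether the sampled tissue held other proportions of neighbouring cell groups was not tested.

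Genes that fell were more numerous, and few of the 1042 called fell by much: 258 by over 0.5 log2 units and 4 by over 1. Long non-coding RNAs, as classed by RefSeq, made up 37.4% of them, against 4.35% of genes called higher and 18.2% of all genes tested. Their median gene span was 42.3 kb, against 15.7 kb for genes called higher and 21.3 kb for all genes. The share called lower was 6.66% on chromosome X, and 2.29% to 8.21% on the autosomes.

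The named genes below were picked by their size or p among the falls and were not tested as a group. Kif5a, a neuronal kinesin heavy chain gene, was at 61 to 181 CPM (median 119) in series D, at 41.1 to 106 CPM (median 48.8) in series E and at 51 to 78.7 CPM (median 54.6) in series F (-0.96 ± 0.13, adjusted p = 1.5e-05). Its paralogue Kif5c was at 204 to 464 CPM (median 321) in series D, and its medians were 178 and 201 CPM in series E and F (-0.64 ± 0.10, adjusted p = 0.00015). Map2, a dendritic microtubule protein, was at 365 to 579 CPM (median 511) and at 342 to 507 CPM in series E and F (-0.40 ± 0.07, adjusted p = 0.00018). In each of these genes the groups overlapped, with E4 the highest library of series E. Xist was itself lower, at 185 to 368 CPM (median 271) in series D and at 147 to 316 CPM in series E and F (-0.42 ± 0.10, adjusted p = 0.01), and E4 had its highest level in series E and F.

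Ash1l, a histone methyltransferase gene, was at 71.1 to 152 CPM (median 116) in series D and at 46 to 125 CPM in series E and F (-0.70 ± 0.11, adjusted p = 0.00018). Apc, which encodes a scaffold of the Wnt pathway, was at 35.3 to 137 CPM (median 90.4) and had medians of 48 and 48.3 CPM in series E and F (-0.74 ± 0.14, adjusted p = 0.0013). Pnma8c, a gene of the paraneoplastic antigen family, was at 12 to 35.2 CPM and at 6.13 to 19.4 CPM (-1.01 ± 0.14, adjusted p = 3.5e-05). Diaph2, a formin gene, fell by 0.85 ± 0.14, the splicing co-factor gene Snw1 by 0.83 ± 0.15, Hnrnpul2, a ribonucleoprotein gene, by 0.75 ± 0.11, Pcdh7, a protocadherin gene, by 0.42 ± 0.07, Arhgap5 by 0.61 ± 0.10 and Zfp91 by 0.52 ± 0.08. Apc, Ash1l, Diaph2, Map2, Pcdh7, Arhgap5 and Zfp91 lost the call with the Xist covariate and under no other setting. Snw1 lost it with that covariate and without series F, and Kif5c with that covariate and with D10 put back. Kif5a, Pnma8c and Hnrnpul2 kept it in every setting.

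Other members of the list of largest falls were Eml2 (-0.83), Pa2g4 (-0.87), Mtcl3 (-0.80), Cd200l1 (-0.76), Dzank1 (-0.69), Cep112 (-0.67), Mustn1 (-0.67), Osbpl1al (-0.83), Rpl23al6 (-0.75), H1f4 (-0.81) and Pdap1 (-0.69). With the Xist covariate all of these but Eml2 lost the call. H1f4 and Pdap1 lost it in 6 settings each, and Osbpl1al, Cep112 and Mustn1 in 3 each, that covariate included. H1f4, a linker histone gene, ranged widely in series D (2.09 to 23.9 CPM), and Pdap1 was at 337 CPM in 1 library of series D against a median of 67.8 CPM. The 2 largest falls were copies of the 45S ribosomal RNA precursor: Rn45sl2 was at 2.27 to 83.3 CPM (median 41.7) in series D and at 6.05 to 25.4 CPM in series E and F (-1.34 ± 0.36, adjusted p = 0.019), and Rn45sl1 fell by 1.02 ± 0.25. Their estimated counts are uncertain between copies, ribosomal RNA has no poly(A) tail, and both lost the call under several settings.

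**Figure D5:**
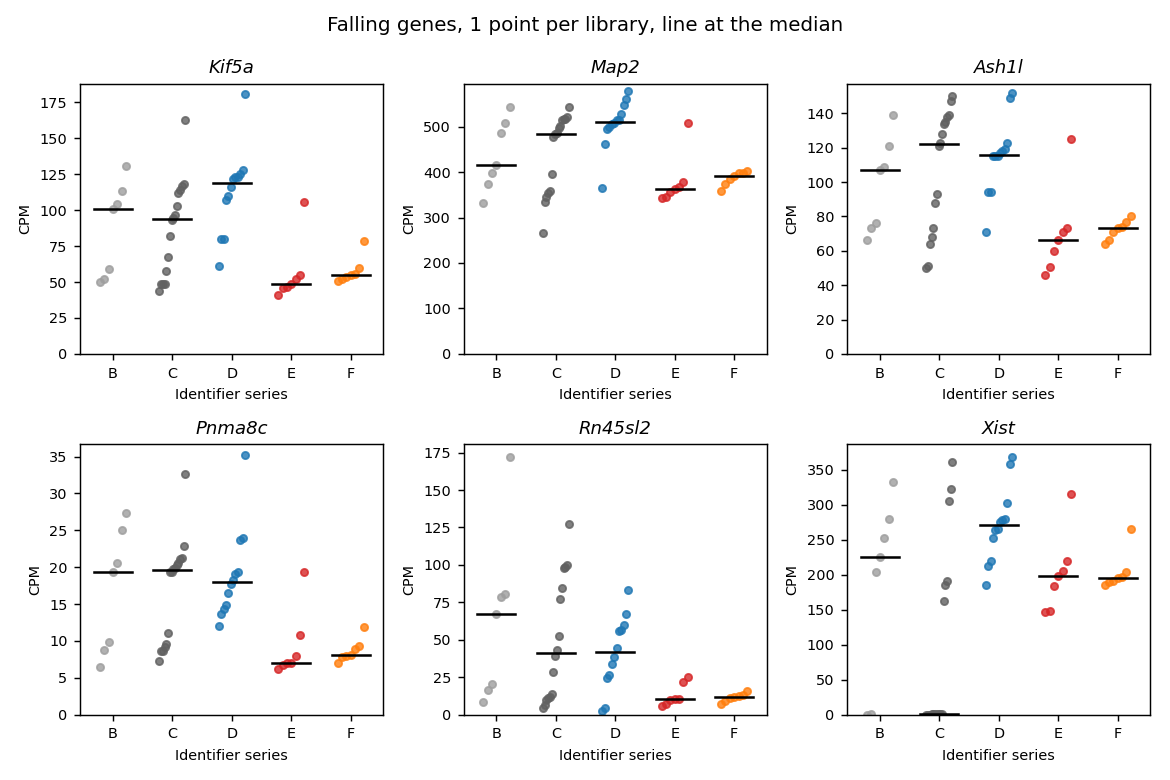
Level in CPM of 6 genes that were lower in series E and F, in each kept library of series B to F, 1 point per library, with the median as a line. In Kif5a the medians are 119 CPM in series D and 48.8 and 54.6 CPM in series E and F, E4 is the highest of series E, and single libraries of series B and C lie at both levels (44 to 163 CPM). In Xist about 0 CPM is seen in libraries of series B and C only.

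Series E and F were compared with D separately as well, and these comparisons share the D libraries. Series E had 191 genes higher (1.03%) and 544 lower (2.94%), and series F had 144 higher (0.779%) and 180 lower (0.974%). Fos differed by 4.23 in series E and 4.27 in series F, Nr4a3 by 3.25 and 3.46, Sgk1 by 1.54 and 1.62, and Eml2 by -0.80 and -0.85. Between series F and E themselves limma called 0 genes (0%), and the rank-sum test also called 0. In limma 289 genes had an unadjusted p under 0.05, fewer than a share of 0.05 of the 18476 tested.

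In the fit over series B to F, D differed from the mean of B and C in 0 genes higher (0%) and 3 lower (0.016%) of 18749, Slc9a3 (-0.61), Anxa9 (-0.74) and Cdh1 (-0.85). That comparison had 833 genes at an unadjusted p under 0.05, fewer than a share of 0.05 of the 18749. As separate settings, limma with voom weights called 2 higher and 5 lower, and the rank-sum test called 0 lower. Series E and F differed from the mean of B and C in 287 genes higher (1.53%) and 594 lower (3.17%). Fos lay 3.90 log2 units above B and C, Nr4a1 3.08, and Kif5a 0.55 below (adjusted p = 0.034). E and F exceeded B and C in 18 early transcription factor genes, and these comparisons share the libraries of series E and F with the main one.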

How the data were processed

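The table deposited by the authors holds log2 values for 38354 genes and 92 libraries, and from the values themselves these were read here as log2(estimated count + 1). The submitters' processing notes name kallisto 0.48, and the build, filters and normalization are not given in the sources used here. All 38278 symbols found in RefSeq (GRCr8) have a position at that gene's start or end in GRCr8. Positions in the promoter windows come from the RefSeq table.

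Members, lists and the contrast were chosen with earlier results of these data known. Libraries followed the stated rule, and 0 columns could not be mapped. Values were scaled to CPM by library total, and log2(CPM + 1) was tested with limma 3.58.1 in R 4.3.3 (mean trend, two-sided) over 12 and 14 libraries. Genes with log2(CPM + 1) of at least 1 in at least 20% of the libraries were kept, with Benjamini-Hochberg adjustment over all of them. Procedures were tested on simulated data. Named genes are the 20 largest rises and falls with the same sign in both series and mean log2(CPM + 1) of at least 2, the 10 of smallest p per direction, and list members, passing over symbols that start with LOC and similar. Lists carry no test. Alternatives covered scaling, pseudocount, filter, tool, covariates and libraries left out.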

Additional observations from a re-analysis of the deposited data

Results flagged for a closer look

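Within series E and F, 113 named genes and 10 list scores were examined for a library far from the other 6 of its series, and chance marks about 1 in 20 groups. Of the 113 genes, 16 were marked in series E and 15 in series F, and the causes were not tested.

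Library E4 was the highest of series E, apart from the rest, in 14 genes, all called lower in series E and F. These were Kif5a (106 CPM, next 55.2), Map2 (507), Ash1l (125), Apc (88.2), Arhgap5 (163), Mtcl3 (117), Crebbp (85.2), Mef2a (76.9), Mef2c (32.3), Pa2g4 (31.8), Pnma8c (19.4), Diaph2 (9.61), Cd200l1 (8.75) and Xist (316). Without E4, 518 genes were higher and 1310 lower.

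Library F1 was apart from the rest of series F at a low level in Fos (37.5 CPM, next 179), Fosl2 (9.78), Junb (18.6), Srxn1 (20) and Dusp14 (10.4), and at a high level in Xist (265), Zfp91 (136) and Rpl23al6 (4.44). Its early transcription factor score was 2.75 (next 4.02) and its delayed score 3.58, as mean log2(CPM + 1) of the members. Library F7 was apart at a high level in Kif5a (78.7 CPM), Eml2 (34.2), Per1 (33.9), Hba-a3 (26.6), Ifit3 (10.5), Snw1 (9.76) and H1f4 (4.22). Ier2 was low in E5 (9.35 CPM), Mef2d was low in E2 (30.4 CPM), and the clock score was high in E7 (5.07).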

How the results depend on the processing

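The comparison of series E and F with D had 437 genes higher and 1042 lower. With log10 of the total as a covariate there were 269 and 532, with the Xist covariate 91 and 9, with the long neuronal minus respiratory chain score 1120 higher, with D10 put back 222 and 395, in the fit over series B to F 269 and 467, without series F 120 and 255, without series E 120 and 166, and without D2, D6 and F1 (chosen after seeing the data) 1633 lower. Leaving out 1 library gave 332 to 803 higher and 701 to 1353 lower, with both highest values without D4. Higher calls were 29.5% of all calls, 37.1% under median-of-ratios and 38.8% under upper-quartile scaling. For E against D, no filter gave 114 and 233, the rank-sum test 57 and 19, and upper-quartile scaling 330 lower. For F against D, the rank-sum test gave 71 and 47, median-of-ratios scaling 308 lower and no filter 82 lower. For D against B and C, voom weights gave 2 higher and 5 lower, a pseudocount of 0.25 gave 1 lower, and no filter, a mean CPM of at least 5 and the rank-sum test gave 0 lower. For E and F against B and C, median-of-ratios scaling gave 459 higher, the rank-sum test 891 and 1274, no filter 273 lower and a mean CPM of at least 5 gave 349 lower. Fewer libraries enter the settings that leave out a series, and the other causes were not tested.

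Of 113 named genes 45 kept their call in every setting that tested them (42 or 43 settings a gene), 68 lost it in at least 1, and 0 reversed. Restricting to libraries with Xist above Ddx3y keeps all 26 and was not run separately. No paired analysis was possible because the labels carry no replicate numbers. The labels give no collection time, handling or batch, so these cannot be told apart from the series. Low genes are limited by depth, and near-identical copies by how estimated counts are split.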

Other observations

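Other lists had few called members, and 2.37% of all genes tested were called higher. Among 14 neuropeptide genes, Pnoc, the nociceptin precursor, was at 99.2 to 200 CPM (median 125) in series D. Its medians were 195 and 173 CPM in series E and F (0.47 ± 0.09, adjusted p = 0.0013 in limma, lost in 3 of 43 settings). Pdyn, the dynorphin precursor, rose by 0.65 ± 0.19 (adjusted p = 0.031, lost in 16 of 42 settings) from a median of 1.55 CPM. Of 12 genes of the unfolded protein response 1 was called, Atf4 (0.27 ± 0.06, lost in 4 of 43 settings).

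In 2 lists of receptor genes of fast transmission 1 member each was called, both lower. Gabrb1, a GABA-A receptor subunit gene, was 1 of 11 past the filter (-0.51 ± 0.11, adjusted p = 0.0026, lost in 2 of 43 settings). Grin2b, an NMDA receptor subunit gene, was 1 of 10 (-0.30 ± 0.09, adjusted p = 0.047, lost in 27 of 43 settings). These counts are near the background, since 5.64% of all genes tested were called lower. Of 12 long neuronal genes Pcdh9 fell (-0.39 ± 0.12, adjusted p = 0.048, lost in 29 settings). Single calls were also made in the endothelial list (Esam, 0.30 ± 0.09, lost in 20 of 43 settings), the interferon list (Ifit3, 0.69 ± 0.21, lost in 20 of 42) and the ribosomal protein list (Rpl3, 0.20 ± 0.06, lost in 8 of 43).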
